A study of Homo sapiens with 6 samples.

Results

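The 10 genes of bile acid synthesis and of the FXR-FGF19 axis were chosen by symbol, but with earlier results of these data known. Of these genes, 8 were among the 16305 genes tested: CYP27A1, BAAT, SLC27A5, NR1H4, NR0B2, FGF19, FGFR4 and KLB. The other two, CYP7A1 and CYP8B1, were not analysed here. RNA was sequenced from Huh7-R cells, a pool (not a single clone) made resistant to sorafenib by long exposure of the human hepatocellular carcinoma line Huh7, which the labels name Huh7SR. Of the 6 samples, 3 received fostamatinib and 3 received its solvent DMSO. Fostamatinib inhibits spleen tyrosine kinase, but the paper did not detect the protein of this kinase in Huh7 cells. It proposes that the drug works through targets still unknown. With a shorter treatment at a higher dose, it reports less phosphorylation of ERK, AKT, STAT3, EGFR and JNK. Which target lies behind the changes described here was not tested. The labels give 2 µM and 24 h for both groups. According to the methods, sorafenib was taken out of the medium some days before every experiment, so all 6 samples share the resistant background and the withdrawal. No source used here says whether the samples of a group are separate cultures, so p-values measure only the spread between these samples, which may be technical.

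Hepatocytes make bile acids from cholesterol. CYP7A1 starts the classical route and CYP27A1 the alternative one, CYP8B1 sets the balance between cholic and chenodeoxycholic acid, and SLC27A5 and BAAT attach coenzyme A and then glycine or taurine. Bile acids activate the nuclear receptor FXR (gene NR1H4), which induces the repressor SHP (gene NR0B2) in liver and the hormone FGF19 in ileum. FGF19 binds the receptor FGFR4 together with its co-receptor beta-Klotho (gene KLB) on hepatocytes, and both arms lower CYP7A1 expression. In liver cancer FGF19 and FGFR4 are also studied as a growth signal.

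The stretches upstream of the start site are shown for KLB and BAAT, both higher after fostamatinib, and for NR1H4, which was lower, because a receptor of this axis acts through promoter sequence. Each is the 250 bases before a RefSeq start (table on GRCh38.p14), matched exactly to GRCh37, and none overlaps an annotated exon there. Capitals mark the core AGGTCA, or its reverse complement, that many nuclear receptors bind.
KLB: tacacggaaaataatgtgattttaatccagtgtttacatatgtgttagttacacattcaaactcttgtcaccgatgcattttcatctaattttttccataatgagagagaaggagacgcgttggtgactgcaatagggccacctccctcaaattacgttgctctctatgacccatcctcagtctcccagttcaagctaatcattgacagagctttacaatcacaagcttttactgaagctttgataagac
BAAT: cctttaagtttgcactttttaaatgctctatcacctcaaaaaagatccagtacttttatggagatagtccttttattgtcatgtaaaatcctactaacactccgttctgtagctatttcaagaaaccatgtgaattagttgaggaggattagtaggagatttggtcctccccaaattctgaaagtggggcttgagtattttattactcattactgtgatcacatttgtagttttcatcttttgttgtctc
NR1H4: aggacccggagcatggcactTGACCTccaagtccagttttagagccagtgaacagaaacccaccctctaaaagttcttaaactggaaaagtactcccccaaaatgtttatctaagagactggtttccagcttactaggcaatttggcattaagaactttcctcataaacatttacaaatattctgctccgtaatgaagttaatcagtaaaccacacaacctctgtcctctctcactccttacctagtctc
On GRCh37 these lie at chr4:39408300-39408549 on the + strand, chr9:104146156-104146405 on the - strand and chr12:100896888-100897137 on the + strand. The BAAT and NR1H4 stretches lie within the annotated span of their genes, in intron, and the KLB stretch ends at the base before its gene. The NR1H4 stretch holds the core 230 bases before the start, while the KLB and BAAT stretches do not hold these letters. Of 35116 stretches of this length before RefSeq starts, 12.1% hold the core on either strand. Longer elements were also searched on both strands: CAAGGTCA for LRH-1, which contains the core (1.14% of all stretches), CAAAGTCCA for HNF4 (0.325%), the inverted repeat of the core bound by FXR (0.00854%) and the palindrome bound by HNF1 (0.0484%). None of these 4 was found in the 8 stretches on hand for 6 of the members. A second BAAT stretch, which overlaps an exon and is not shown, holds the core 41 bases before its start.

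Values are log2 CPM, that is, reads scaled to a common library size on a log2 scale, and reads per gene were recovered from them. The 6 samples had 13303451 to 15272737 reads on the listed genes. Fold changes are fostamatinib against DMSO from limma's linear model, with adjusted p-values by the Benjamini-Hochberg method over all 16305 genes, and a gene is said to have risen or fallen at an adjusted p under 0.05. Of the 8 genes, 5 rose and 2 fell, 7 in all, while 47.8% of all genes tested passed in either direction, 23.3% higher and 24.5% lower. In all 8 genes the ranges of the 3 treated and the 3 DMSO samples did not overlap, as was seen for 54.1% of all genes. The median log2 fold change of the 8 genes was 0.83, beside 0.0015 for all genes. BAAT, NR0B2, KLB, NR1H4 and SLC27A5, 5 of the 8, passed with a change of more than 2-fold, as did 7.13% of all genes.

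**Figure D1:**
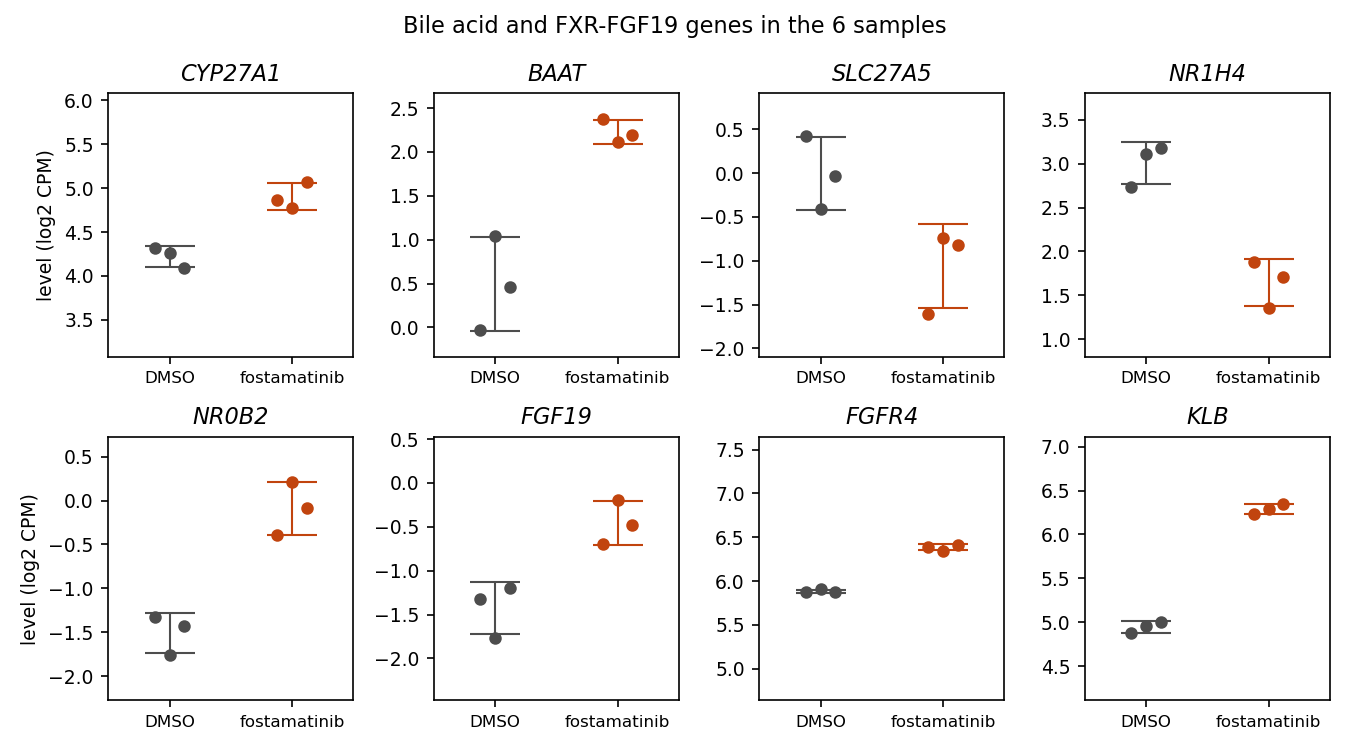
Level of each of the 8 genes in every sample, in log2 CPM, with DMSO samples in grey and fostamatinib samples in red-brown. Points are samples, bars run from 1 SD below to 1 SD above the group mean (n = 3), and every panel spans at least 3 log2 units. The groups do not overlap in any panel, and NR1H4 and SLC27A5 are the genes that are lower after fostamatinib.

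Among the synthesis enzymes CYP27A1 rose. This mitochondrial sterol hydroxylase (ENSG00000135929), encoded on the + strand of chromosome 2 at 219646472 to 219680016 (GRCh37, as for the genes that follow), had 275, 292 and 252 reads under DMSO against 400, 390 and 445 after fostamatinib. Every treated sample was above every DMSO sample. The mean was 4.22 ± 0.12 log2 CPM under DMSO and 4.90 ± 0.15 after treatment (SD, n = 3 each), a log2 fold change of 0.68 ± 0.083 (standard error, limma adjusted p = 1.7e-08), or 1.60-fold with a 95% confidence interval of 1.43 to 1.80.

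The conjugation enzymes moved in opposite directions. BAAT, the transferase that joins the bile acid to its amino acid (ENSG00000136881), lies on chromosome 9 from 104116464 to 104147682 on the - strand and had 13, 31 and 20 reads under DMSO against 71, 61 and 60 after fostamatinib. The DMSO samples differed among themselves by more than the treated ones, yet none reached the lowest treated sample. A pseudogene on the opposite strand overlaps 9.57% of its exon bases. BAAT had the largest rise of the 8 genes, at a log2 fold change of 1.73 ± 0.23 (standard error, limma adjusted p = 1.25e-07), from 0.49 ± 0.54 log2 CPM to 2.23 ± 0.14 (SD, n = 3 each), and ranked 212 among the 16305 genes ordered from the largest rise. When each sample was left out in turn, its log2 fold change lay between 1.47 and 2.01.

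SLC27A5, the ligase that prepares the bile acid for BAAT (ENSG00000083807), lies on chromosome 19 from 58990879 to 59023780 on the - strand and had 18, 11 and 14 reads under DMSO against 4, 8 and 7 after fostamatinib. The groups did not overlap, but the gap between 11 and 8 reads was small. Its log2 fold change was -1.05 ± 0.41 (standard error, limma adjusted p = 0.0336). This call rested on single samples: without DMSO replicate 1 the log2 fold change was -0.84 (adjusted p = 0.167), without DMSO replicate 3 it was -1.07 (adjusted p = 0.0702) and without fostamatinib replicate 1 it was -0.78 (adjusted p = 0.137), all from limma. Exons of ZNF446 and of a long non-coding RNA on the opposite strand cover 16.5% of the exon bases of SLC27A5, and whether counting used strand is not given in the sources used here. The log2 ratio of BAAT to SLC27A5 was -0.45, 1.45 and 0.50 under DMSO against 3.99, 2.86 and 3.01 after fostamatinib. The ratio was thus higher in 3 of 3 treated samples, by 2.79 on the log2 scale, or 6.90-fold (exact permutation test, two-sided p = 0.10, adjusted p = 0.133 over 4 ratios); 0.10 is the smallest p that 3 samples against 3 can give.

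The nuclear receptors of the axis also moved in opposite directions. NR1H4, which encodes the bile acid receptor FXR (ENSG00000012504), lies on chromosome 12 from 100867486 to 100958192 on the + strand and had 91, 131 and 134 reads under DMSO against 50, 36 and 43 after fostamatinib. The highest treated sample stayed well below the lowest DMSO sample. NR1H4 fell, with means of 3.01 ± 0.24 log2 CPM under DMSO and 1.65 ± 0.27 after treatment (SD, n = 3 each), a log2 fold change of -1.36 ± 0.17 (standard error, limma adjusted p = 1.64e-08), which is 2.56-fold lower with a 95% confidence interval of 2.03 to 3.23.

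NR0B2, which encodes SHP, the repressor that FXR induces (ENSG00000131910), lies on chromosome 1 from 27237980 to 27240466 on the - strand and had 5, 4 and 5 reads under DMSO against 10, 16 and 12 after fostamatinib. The groups were separate, though all counts were low. Its log2 fold change was 1.42 ± 0.43 (standard error, limma adjusted p = 6.92e-03), with a wide 95% confidence interval from 0.54 to 2.30. Omission of any sample gave 1.27 to 1.57, with adjusted p-values up to 0.0476 from limma. The log2 ratio of NR0B2 to NR1H4 was -4.06, -4.87 and -4.61 under DMSO and -2.27, -1.15 and -1.80 after fostamatinib. It was higher in every treated sample, by 2.78 on the log2 scale or 6.85-fold (exact permutation test, two-sided p = 0.10, adjusted p = 0.133).

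**Figure D2:**
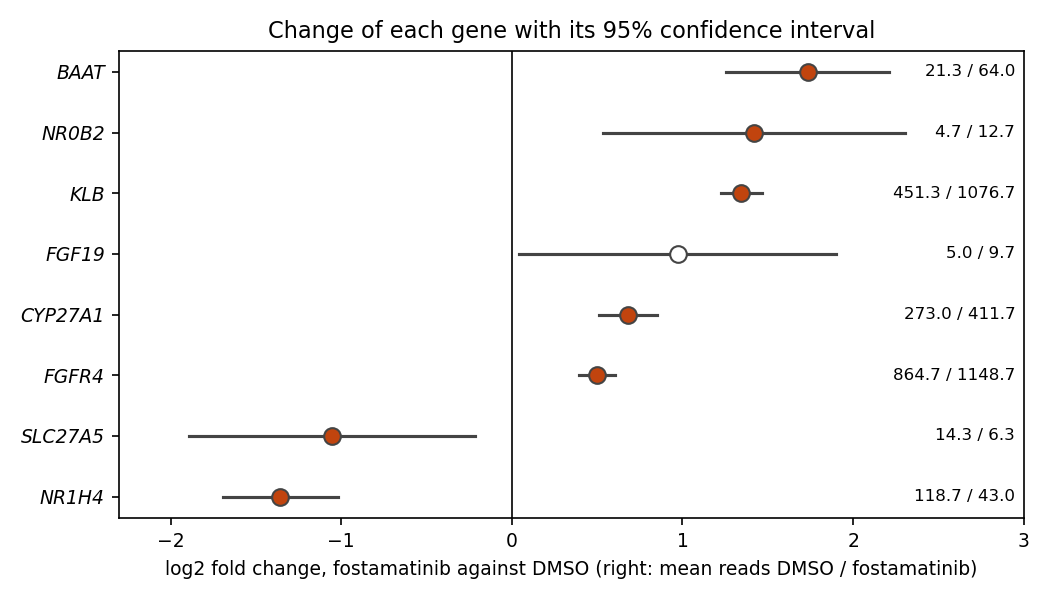
Log2 fold change of each gene (x axis, fostamatinib against DMSO) with its 95% confidence interval from limma, filled where the adjusted p was under 0.05, and the mean reads of both groups at the right. BAAT is at the top with 1.73 and NR1H4 at the bottom with -1.36; the genes with few reads, NR0B2, FGF19 and SLC27A5, have the widest intervals.

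The receptor genes for FGF19 both rose, and the co-receptor rose more. KLB (ENSG00000134962), on chromosome 4 from 39408550 to 39453153 on the + strand, had 404, 474 and 476 reads under DMSO against 1034, 1119 and 1077 after fostamatinib. The counts within each group were close together and far from those of the other group. KLB rose, with means of 4.95 ± 0.065 log2 CPM under DMSO and 6.29 ± 0.056 after treatment (SD, n = 3 each), a log2 fold change of 1.35 ± 0.059 (standard error, limma adjusted p = 5.54e-20), or 2.54-fold with a 95% confidence interval of 2.34 to 2.76.

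FGFR4, the receptor tyrosine kinase that beta-Klotho partners (ENSG00000160867), lies on chromosome 5 from 176513906 to 176525145 on the + strand and had 810, 915 and 869 reads under DMSO against 1154, 1161 and 1131 after fostamatinib. All treated samples were above all DMSO samples. FGFR4 rose as well, with means of 5.89 ± 0.019 and 6.39 ± 0.034 log2 CPM (SD, n = 3 each), a log2 fold change of 0.50 ± 0.051 (standard error, limma adjusted p = 2.92e-10), or 1.41-fold. The log2 ratio of FGFR4 to KLB was 1.003, 0.95 and 0.87 under DMSO and 0.16, 0.053 and 0.071 after fostamatinib. The ratio was lower in 3 of 3 treated samples and fell by 0.85 on the log2 scale, a 1.80-fold shift toward KLB (exact permutation test, two-sided p = 0.10, adjusted p = 0.133).

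FGF19 itself (ENSG00000162344), on chromosome 11 from 69513006 to 69518790 on the - strand, had few reads: 5, 4 and 6 under DMSO and 8, 12 and 9 after fostamatinib. The groups did not overlap, and each treated sample was above the DMSO samples. The log2 fold change, 0.97 ± 0.46 (standard error, limma adjusted p = 0.0784), did not pass the test. Its 95% confidence interval ran from 0.045 to 1.90, from almost no difference to beyond the estimate for BAAT. Without limma's mean-variance trend the adjusted p was 0.0155. The log2 ratio of FGF19 to FGFR4 was -7.20, -7.67 and -7.06 under DMSO and -7.09, -6.54 and -6.90 after fostamatinib. These values overlapped between the groups, with a difference of 0.47 (exact permutation test, two-sided p = 0.20, adjusted p = 0.20 over the 4 ratios).

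Levels of different genes were compared only per length, as CPM per kb of merged exons. FGFR4 was the highest of the 8 genes in both groups, with 12.3 ± 0.163 under DMSO and 17.4 ± 0.409 after fostamatinib (SD, n = 3 each). Under DMSO it was followed by CYP27A1 with 6.26, KLB with 5.13 and NR1H4 with 2.22, and the sample ranges of these 4 genes did not overlap. The means of BAAT, NR0B2, FGF19 and SLC27A5 were all between 0.123 and 0.304 under DMSO. By their sample ranges BAAT could not be told there from NR0B2 or FGF19, nor FGF19 from SLC27A5. After fostamatinib KLB, at 12.5 to 13.5 in its samples, was above CYP27A1, at 9.17 to 11.3. NR1H4 then lay at 0.864, with a sample range that overlapped those of BAAT at 0.984 and NR0B2 at 0.788. FGF19, the ligand, was at 0.385 and SLC27A5 was lowest at 0.0573. The level of FGFR4 per length was 2.40 ± 0.112 times that of KLB under DMSO and 1.33 ± 0.053 times after fostamatinib (SD, n = 3 each) with merged exons. With the canonical transcript of each gene it was 3.73 ± 0.175 times and 2.07 ± 0.082 times, so how close both genes came in level depends on the length, while the change of the ratio does not.

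These levels depend on the length used. With the Ensembl canonical transcript in place of all merged exons, an alternative chosen after the data were seen, SLC27A5 (8.025 kb of merged exons, 2.292 kb canonical) moved to 0.432 under DMSO, where its range overlapped that of BAAT, and CYP27A1 with 15.8 stayed above KLB after fostamatinib. FGFR4 was highest under both lengths.

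**Figure D3:**
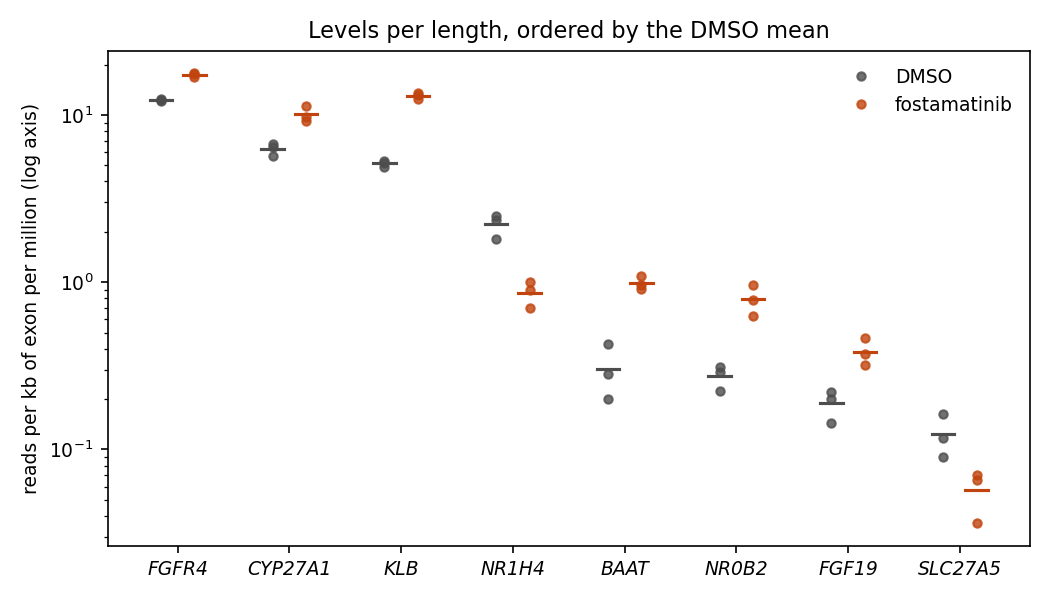
Level of each gene in CPM per kb of merged exons, on a log axis, in DMSO samples (grey) and fostamatinib samples (red-brown), ordered by the DMSO mean; lines are group means (n = 3). FGFR4 is highest in both groups, with merged exons KLB passes CYP27A1 after fostamatinib (with canonical transcripts it does not), and NR1H4 comes down to the level of BAAT and NR0B2.

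The rest of the pathway was described with lists of genes chosen by function, and no list was tested as a set. Beside every list count here and below stands the share of all genes that passed, 47.8% (23.3% higher, 24.5% lower). Of 14 other enzymes of bile acid synthesis, 10 were tested, 5 rose, 1 fell and 4 did not pass, with a median log2 fold change of 0.32. ABCD3, which carries bile acid precursors into the peroxisome, rose by 0.55 on the log2 scale (adjusted p = 8.09e-12 from limma). AMACR, the racemase that readies the side chain for shortening, rose by 0.72 (adjusted p = 1.53e-03 from limma), with 79.9% of its exon bases shared with overlapping gene models on the same strand. ACOT8, a peroxisomal thioesterase, rose by 0.45 (adjusted p = 3.46e-05 from limma), with SNX21 on the opposite strand over 34.2% of its exon bases. SLC27A2, a ligase of the same family as SLC27A5, had 16, 20 and 22 reads under DMSO and 10, 5 and 8 after fostamatinib. It fell, at a log2 fold change of -1.23 ± 0.36 (standard error, limma adjusted p = 5.35e-03), with ATP8B4 on the opposite strand over 19.95% of its exon bases. SLC27A5 was lower as well, but both ligase genes had few reads and the call on SLC27A5 rested on single samples.

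Of 13 bile acid transporters, 7 were tested, 2 rose, 1 fell and 4 did not pass, with a median log2 fold change of 0.0029. ABCC2, the canalicular pump for conjugated organic anions, rose from 473, 473 and 509 reads to 817, 851 and 819, a log2 fold change of 0.86 (adjusted p = 2.82e-14 from limma). ABCC3, a basolateral exporter, rose by 0.71 (adjusted p = 2.5e-13 from limma). ABCC4, another basolateral exporter, had a log2 fold change of -0.49 (adjusted p = 2.37e-07 from limma), so the exporters did not share a direction. The canalicular bile salt pump ABCB11 and the uptake carrier SLC10A1 were not analysed here.

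Of 12 other genes known as FXR targets, 7 were tested, 3 rose and 4 did not pass, with a median log2 fold change of 0.24. UGT2B4, which conjugates bile acids with glucuronic acid, rose from 62, 86 and 105 reads to 181, 240 and 196, a log2 fold change of 1.39 (adjusted p = 7.68e-11 from limma). It belongs to a family of close copies between which reads may be split. KNG1, the precursor of bradykinin, rose by 0.76 (adjusted p = 3.65e-05 from limma) and SDC1, a cell surface proteoglycan, by 0.24 (adjusted p = 2.38e-03 from limma). SLC51B, the beta chain of the basolateral bile acid exporter, had 12, 8 and 8 reads under DMSO and 12, 9 and 11 after fostamatinib, with a log2 fold change of 0.29 (95% confidence interval -0.51 to 1.08, adjusted p = 0.577 from limma), and was named after its values were seen. So were the others that did not pass. PLTP, with 1660, 2018 and 1913 reads under DMSO, had 0.058 (95% confidence interval -0.036 to 0.15, adjusted p = 0.318 from limma). ABCB4 had -0.045 (adjusted p = 0.873) and FABP6, with few reads, -0.75 (0.35), both from limma.

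Of 14 transcription regulators of CYP7A1 and CYP8B1, 13 were tested, 9 rose, 2 fell and 2 did not pass, with a median log2 fold change of 0.45. HNF4A, which binds both promoters, rose from 2055, 2315 and 2225 reads to 4194, 4333 and 4051. Its log2 fold change was 1.02 ± 0.039 (standard error, limma adjusted p = 8.4e-22), with all treated samples far above the DMSO samples. NR5A2, which encodes LRH-1, the partner through which SHP acts, rose by 0.99 (adjusted p = 2.41e-17 from limma). NR2F2, an orphan nuclear receptor, rose by 1.15 (adjusted p = 1.37e-18 from limma) and PPARGC1A, a coactivator, by 0.92 (adjusted p = 8.16e-06 from limma). The 2 that fell, PROX1 with -0.43 (adjusted p = 1.22e-07 from limma) and MAFG with -0.36 (adjusted p = 4.8e-07 from limma), are known as repressors of bile acid synthesis genes and were named after their values were seen. Repressors did not share a direction, since NR0B2, which encodes the repressor SHP, rose (log2 fold change 1.42, limma adjusted p = 6.92e-03).

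Of 12 partners of FGF receptor signalling, 8 were tested, 4 rose, 3 fell and 1 did not pass, with a median log2 fold change of 0.13. FGFR3 rose from 2596, 2778 and 2554 reads to 4707, 5050 and 4668, a log2 fold change of 0.95 (adjusted p = 1.84e-20 from limma). Per length, FGFR3 was 3.04 ± 0.134 times as high as FGFR4 under DMSO and 4.15 ± 0.143 times after fostamatinib (SD, n = 3 each), and with canonical transcripts 2.20 and 3.01 times. KL, the co-receptor of the Klotho family that FGF23 uses, had 30, 23 and 33 reads under DMSO and 14, 18 and 18 after fostamatinib. Its log2 fold change of -0.67 (adjusted p = 0.0424 from limma) was opposite to that of KLB, and it no longer passed without DMSO replicate 1 (-0.59, adjusted p = 0.137), DMSO replicate 3 (-0.57, 0.149), fostamatinib replicate 1 (-0.55, 0.128) or fostamatinib replicate 2 (-0.70, 0.0617), all from limma. Among the adaptors, SOS1, the exchange factor for RAS, rose by 0.82 (adjusted p = 2.12e-17 from limma) and the phosphatase gene PTPN11 fell by 0.41 (adjusted p = 2.01e-11 from limma).

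**Figure D4:**
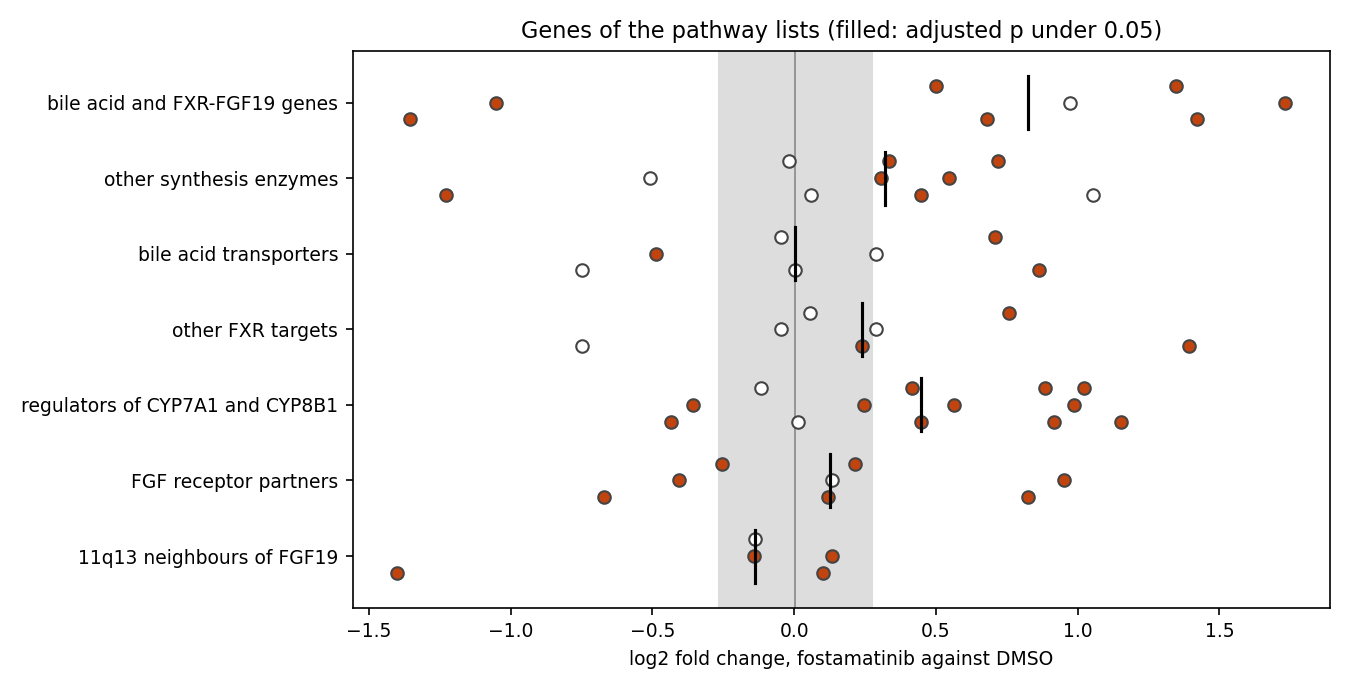
Log2 fold change of every tested gene in the lists (x axis, fostamatinib against DMSO), filled where the adjusted p from limma was under 0.05, with a black line at the median of each list and the interquartile range of all 16305 genes in grey, from -0.27 to 0.27. The 13 regulators of CYP7A1 and CYP8B1 have their median at 0.45, and CCND1 lies far to the left among the neighbours of FGF19.

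The labelled cell type was checked against markers. All 10 hepatocyte markers were present and rose, although APOB (log2 fold change 0.21) did not pass without limma's mean-variance trend (adjusted p = 0.0916). ALB was at 8568 to 9734 reads under DMSO and 10369 to 11313 after fostamatinib, and the summed level of the 10 markers was 3088 to 3277 CPM under DMSO and 4301 to 4621 CPM after fostamatinib. The rises were uneven. FGB, the marker with the highest level, rose by 0.74 on the log2 scale and ALB by 0.29. APOA1 rose by 3.19 from 20, 22 and 23 reads under DMSO. Of the 8 genes, CYP27A1, BAAT, NR0B2, FGFR4 and KLB rose as these markers did, while NR1H4 and SLC27A5 were lower after fostamatinib. These rises ran from 0.50 to 1.73 on the log2 scale, beside a median of 0.60 for the markers. The call on SLC27A5 rested on single samples. FGF19, which ileum makes, did not pass. Of the enterocyte markers CDX2, VIL1 and CDH17 rose, and a link to FGF19 was not tested. SI, with 1, 1 and 0 reads under DMSO and 8, 7 and 3 after fostamatinib, is in the table only through its treated samples, and without fostamatinib replicate 1 it did not pass (adjusted p = 0.0575 from limma). These 4 of 8 listed markers summed to 85.6 to 94.0 CPM under DMSO and 178 to 182 CPM after fostamatinib, and CDX1, LCT, FABP2 and ALPI were not analysed here. Of 6 cholangiocyte markers tested of 7, 2 rose and 2 fell. KRT19, which makes up most of their sum (297.5 to 314 CPM under DMSO, 334 to 342 after fostamatinib), rose by 0.25 on the log2 scale, and SPP1 was 3.53-fold lower. The other rise, EPCAM with 0.17, did not pass without the trend (adjusted p = 0.0908), nor without DMSO replicate 1 (0.0733), DMSO replicate 2 (0.0548), fostamatinib replicate 2 (0.0552) or fostamatinib replicate 3 (0.18), all from limma. Stellate cell markers summed to at most 12.6 CPM, with 1 of 3 tested higher, and blood and endothelial markers to at most 10.5 CPM, with 1 of 2 tested higher. Markers other than ALB were named after their values were seen. The part of these marker levels in the results above was not tested. In bulk RNA, fewer cells of a type and less RNA per cell cannot be told apart.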

How the data were processed

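RNA-seq data of 3 fostamatinib-treated and 3 DMSO-treated samples of Huh7-R cells were used. The authors used HISAT with hg19 and then featureCounts with GENCODE 22, applied a filter on low counts and scaled by TMM. The genes kept all have 5 or more reads in 2 or more samples of either group. The deposited values are log2 CPM, with 0.5 added to each count by the authors. Reads were recovered from them, with 100% of values within 0.05 of a whole number. One gene listed 7 times was used once. Groups and replicate numbers were taken from the sample titles.

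For 16305 genes the log2 CPM were fitted on treatment alone in limma 3.58.1 (R 4.3.3), using empirical Bayes with a mean-variance trend, and p-values were adjusted by Benjamini-Hochberg. The step was tested on simulated data, scaled by library size alone, in which only 200 genes with many reads were changed. Calls on genes with few reads were thus not covered, nor was a change in as large a share of genes as passed here (47.8%). Log2 ratios were compared with exact permutation tests (scipy 1.17.1). Planned ratios with CYP7A1 or CYP8B1 could not be computed. No column of per-sample values was left unused. Lengths, overlaps and coordinates come from GRCh37 with GENCODE 44 mapped to it, and promoter stretches from RefSeq, where 6 of the 10 members had an entry. Named were all members and, of each of 6 pathway lists, at most 4 genes with the largest change among those that passed at a mean of 10 or more reads in one group; exceptions are marked. Members and lists, including the 5 marker lists, were chosen with earlier results of these data known. The alternatives were limma-voom, no trend, RLE factors, library size alone, an offset of 2 reads, 2 stricter filters, a replicate block and omission of each sample.

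Replicates differed by 1.65 to 3.74 times counting variance (chi-square per degree of freedom), so each sample was counted once. Precision is set by 3 samples per group and, for genes with few reads, by counting error.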

Additional observations from a re-analysis of the deposited data

How the results depend on the processing

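Of the 8 genes, 7 passed under limma-voom, without a trend, with RLE factors, with library size alone, with an offset of 2 reads, with the filter on both groups and with the replicate block. With at least 10 reads in every sample 5 remained and all 5 passed, since that filter removes SLC27A5, NR0B2 and FGF19. With each sample left out 6 to 7 passed. No direction changed. SLC27A5 did not pass without the trend (adjusted p = 0.0507 from limma) and FGF19 passed there (0.0155). The very small adjusted p-values depend on the trend. Without it limma gave 2.17e-04 for KLB, 1.08e-03 for FGFR4, 4.27e-03 for NR1H4, 6.28e-03 for CYP27A1 and 7.39e-03 for BAAT. For NR0B2 it gave 4.32e-03. Of the 47 genes of the pathway lists tested, 34 passed, 27 to 36 under the alternatives that keep every sample, and 30 to 34 with a sample left out. Of 22 named list genes, 18 passed under every alternative that tested them, the others being KL, FADD, PPFIA1 and CTTN. Of the markers, APOB, EPCAM and SI lost their calls under the alternatives given beside them. The median log2 fold change of all genes stayed within 0.1 of 0 under each scaling.

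The numbers that same-numbered samples share do not pair them by their deviations from the group means (correlations of 0.0365, -0.0213 and 0.0371 across 12249 genes). With the replicate number as a block in a limma fit of the 4 ratios, NR0B2 to NR1H4 (2.78, adjusted p = 0.0257) and FGFR4 to KLB (-0.85, adjusted p = 0.0106) passed, which the exact test of 3 against 3 cannot do. That fit is a different test, with empirical Bayes over only the 4 ratios, so a pass there cannot be credited to pairing. Leaving out each sample gave 2.31 to 3.26 for BAAT to SLC27A5, 2.48 to 3.04 for NR0B2 to NR1H4, -0.88 to -0.81 for FGFR4 to KLB and 0.29 to 0.60 for FGF19 to FGFR4. The alternative with no filter was not run because the authors had already filtered the genes. Depth limits FGF19, NR0B2 and SLC27A5, with means of at most 14.3 reads per group.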

Other observations

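FGF19 lies on 11q13 beside the cell cycle gene CCND1, and its neighbours there were described as a list. Of 9 neighbours, 5 were tested, 2 rose, 2 fell and 1 did not pass, with a median log2 fold change of -0.14. CCND1, which encodes cyclin D1, had 2843, 2980 and 3078 reads under DMSO and 1116, 1044 and 1011 after fostamatinib. Its log2 fold change was -1.40 ± 0.047 (standard error, limma adjusted p = 2.35e-23), opposite in sign to that of FGF19, and all treated samples were far below the DMSO samples. The other 3 that passed were close to no change: FADD, an adaptor of death receptors, with -0.14 (adjusted p = 0.0219), PPFIA1, a liprin, with 0.13 (5.66e-03) and CTTN, an actin-binding protein, with 0.10 (0.0106), all from limma. Without the mean-variance trend 1 of these 5 genes passed, without DMSO replicate 1 it was 2 and without fostamatinib replicate 2 it was 1.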
